A study of Mus musculus with 12 samples.

Results

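The snoRNA host genes Gas5, Snhg1, Snhg3, Snhg6, Snhg8 and Snhg12 were followed in LSKs, the Lin- Sca-1+ c-Kit+ bone marrow cells that hold the hematopoietic stem and early progenitor cells. These 6 genes were taken by name from a table of 53465 genes, and their levels were measured by RNA-seq in 12 libraries of 4 groups, with 3 libraries in each. Untreated Tespa1+/+ mice were wild-type littermates, and untreated Tespa1-/- mice carried a germline deletion (B6.129S-Tespa1tm1Smoc) of Tespa1, which encodes an adaptor of T cell receptor signalling. The other 2 groups were Tespa1+/+ and Tespa1-/- mice on day 9 after a single injection of 150 mg/kg 5-fluorouracil (5-FU), a pyrimidine analogue that kills cycling cells and is built into RNA. All mice were males of 8 to 10 weeks on a C57BL/6 background, to which the allele had been crossed for more than 6 generations. No source used here ties a library to 1 mouse or to a pool, so p-values measure the spread between these libraries.

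A snoRNA host gene is transcribed for the small nucleolar RNAs in its introns as well as for its spliced product. The introns are trimmed to mature snoRNAs, which guide modification or cleavage of ribosomal RNA, while the spliced host RNA of these genes is mostly noncoding. Many host RNAs begin with a tract of pyrimidines, as the mRNAs of ribosomal proteins do, and are translated over short reading frames and removed by nonsense-mediated decay. Gas5 (growth arrest specific 5) was found as an RNA that accumulates in arrested cells, and its RNA can bind the glucocorticoid receptor. In the GRCm38 annotation Gas5 lies on chr1:161034422-161038539 (plus strand) with 10 snoRNA genes in its span, and Snhg1 on chr19:8723475-8726443 (plus) with 8. Snhg6 lies on chr1:9941959-9944118 (minus) with 1, Snord87. These 3 genes hold mainly box C/D snoRNAs, which guide 2'-O-methylation. The other 3 hold mainly H/ACA snoRNAs, which guide pseudouridylation: Snhg3 on chr4:132348014-132353686 (minus) holds Snora73a and Snora73b, Snhg8 on chr3:123507552-123508404 (minus) holds Snora24, and Snhg12 on chr4:132308678-132311024 (plus) holds 5, among them Snora44 and Snora61.

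To show which of these host RNAs begin with a pyrimidine tract, as ribosomal protein mRNAs do, the bases around the RefSeq start (GRCm38.p6) are given here, from 40 bases before to 30 bases from the start on, in the direction of transcription. The table of start windows held 5 of the 6 genes. Capitals mark TATA between 45 and 20 bases before the start, and a pyrimidine tract, defined as a C followed by at least 4 bases that are each C or T, with its C within 5 bases of the start. For Snhg6, the first 30 bases of the GENCODE transcript Snhg6-203 are given, which begin with the tract.
Gas5, chr1:161035126-161035195: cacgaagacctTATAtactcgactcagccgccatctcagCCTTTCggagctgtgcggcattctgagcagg
Snhg8, chr3:123508307-123508376: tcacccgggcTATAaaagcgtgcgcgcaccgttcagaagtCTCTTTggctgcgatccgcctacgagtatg
Snhg12, chr4:132308638-132308707: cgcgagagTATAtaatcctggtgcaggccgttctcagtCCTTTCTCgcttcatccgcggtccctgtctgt
Snhg3, chr4:132353657-132353726: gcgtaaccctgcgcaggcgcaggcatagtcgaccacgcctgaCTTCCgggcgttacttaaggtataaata
Snhg1, chr19:8723447-8723516: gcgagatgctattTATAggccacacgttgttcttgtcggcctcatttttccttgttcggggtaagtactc
Snhg6, chr1:9944089-9944118: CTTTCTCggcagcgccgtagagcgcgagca
Of 6 windows of 5 genes, 3 held both features, those of Snhg8, Snhg12 and the second of 2 RefSeq starts of Gas5, as did 1.20% of all 32851 start windows. The tract alone stood in 18.3% of windows and TATA in 6.62%. Snhg1 had TATA without a tract by this definition, and Snhg3 a tract without TATA at that distance. The first start of Gas5, which is not shown, had neither feature. Within 10 bases of it 1 of the 25 GENCODE transcripts of Gas5 begins, and within 10 bases of the start shown, 10. The matches are letters in a window and do not show a factor or a start in LSKs.

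Deposited counts summed to between 22118154 and 28275079 per library, with a median of 23401715, and 3 counts, taken as the lowest level read as detected, came to between 0.106 and 0.136 CPM, counts scaled to a library total that is the same for all libraries. CPM given here are scaled by the trimmed mean of M-values (TMM) over the 12 libraries. Kit was at 328 to 474 CPM and Ly6a, which encodes Sca-1, at 10.6 to 45.2 CPM, so both genes of the sort were detected in every library. Tespa1 was at 43.0 to 57.4 CPM in Tespa1+/+ libraries, at 34.5 to 35.0 CPM in untreated Tespa1-/- libraries and at 17.3 to 20.8 CPM in Tespa1-/- libraries after 5-FU, lower in each Tespa1-/- library but not absent. The gene total does not separate deleted from remaining exons. Libraries of Tespa1-/- mice after 5-FU stood apart by the cell type markers: the summed level of 8 neutrophil markers was 968 to 990 CPM there, against at most 5.73 CPM in the other 9 libraries, and that of 8 erythroid markers 655 to 690 CPM against 144 to 263 CPM. The summed level of 7 markers of multipotent and stem cells was 442 to 482 CPM there and 813 to 1182 CPM in the other libraries. For 5 B cell markers it was 249 to 292 CPM after 5-FU in both genotypes and 33.9 to 66.9 CPM in untreated libraries. In such bulk samples, fewer cells of a type and less RNA per cell cannot be told apart.

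Gas5, at 199 to 235 CPM, drew the most reads of the 6 genes, 4443 to 5886 counts per library, and its mean CPM, which grows with length, exceeded that of 95.3% of genes over 1 CPM. It was also the steadiest: its highest level was 1.18 times its lowest, and the standard deviation within a group was 1.06% to 4.29% of the mean, where counting alone gives 1.39%. Snhg1 had 1049 to 1644 counts per library and spanned 1.52-fold, Snhg8 had 541 to 953 and spanned 1.74-fold, and Snhg12 had 459 to 856 and spanned 2.0-fold. Snhg6 drew the fewest reads, 169 to 351 counts, and spanned 2.05-fold with a spread within groups of 11.7% to 31.8%, against 6.25% from counting. Snhg3 spanned 13-fold, with 1 library far below the other 11, which is described with its results.

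Levels of different genes were compared per length, with the deposited FPKM, fragments scaled to exon length and library total. Mean FPKM over the 12 libraries was 18.4 for Gas5, 16.2 for Snhg8, 12.9 for Snhg3, 7.85 for Snhg12, 5.05 for Snhg1 and 4.83 for Snhg6. Over the 12 libraries the FPKM ranges of Gas5 and Snhg8 overlapped (17.0 to 20.1 and 11.9 to 20.7 FPKM), as did those of Snhg8 and Snhg3, of Snhg3 and Snhg12, of Snhg12 and Snhg1, and of Snhg1 and Snhg6. Within each of the 12 libraries, however, the FPKM of Snhg12 was above that of Snhg1. The length behind these values is not that of the RNA. For Gas5 the FPKM divided by 11685 bp, longer than the gene's whole span of 4118 bp, which is the summed length of all its distinct annotated exons, overlapping exons being counted repeatedly. For 89.6% of the 13993 genes compared, the length behind the FPKM equalled that sum within 1 bp. Snhg12 was an exception, at 3289 bp where its distinct exons summed to 6674 bp, so its FPKM rests on another set of exons than the annotation used here. Merged exons measured 3760 bp for Gas5 and 2969 bp for Snhg1, which is 3.11 and 3.75 times shorter than the lengths used. This length is not that of 1 spliced RNA either. For Snhg1 and Snhg8 it equals the gene's whole span (2969 and 853 bp). For Snhg12 it is 2402 bp, where the span in the deposited table is 2347 bp. Per kilobase of merged exons, a measure added after seeing the data, Gas5 stood at 57.1 CPM, Snhg8 at 33.4, Snhg3 at 24.0, Snhg1 at 18.9, Snhg12 at 10.8 and Snhg6 at 9.20, so that Gas5 (53.0 to 62.5) lay above Snhg8 (24.6 to 42.7) in every library, and Snhg1 (15.7 to 23.8) above Snhg12 (7.53 to 15.1), which reversed the order that this pair had by FPKM.

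**Figure D1:**
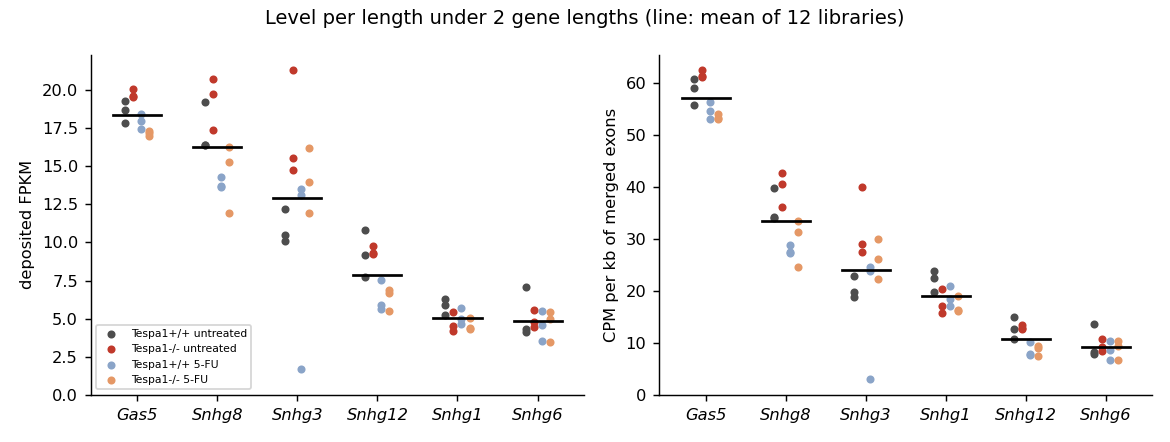
Level per length of each gene in deposited FPKM (left) and in CPM per kilobase of merged exons (right), 1 point per library coloured by group, with a line at the mean of 12 libraries. Gas5 and Snhg8 overlap on the left (means 18.4 and 16.2) and separate on the right (57.1 and 33.4), and 1 Snhg3 point lies far below the others in both.

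After 5-FU, Gas5 and Snhg12 fell in Tespa1-/- LSKs, and none of the 6 host RNAs passed the test in Tespa1+/+ LSKs. By the quasi-likelihood test of edgeR, adjusted over all genes, 2 of 6 passed as lower in Tespa1-/- LSKs and none as higher, where 8.64% of the 17228 genes tested were called lower. In Tespa1+/+ LSKs none of 6 passed in either direction at an adjusted p below 0.05, 2 had an unadjusted p below that value and DESeq2 called 1 lower, Snhg12, where 4.18% of 17002 genes were called lower. All 6 estimates were negative in each genotype, with a median log2 fold change of -0.24 in Tespa1+/+ and -0.26 in Tespa1-/- LSKs against 0.01 and -0.01 over all genes tested. The signs of Snhg3 and Snhg6 in Tespa1+/+ and of Snhg1 and Snhg6 in Tespa1-/- LSKs turned when 1 library was left out.

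Snhg12, the host of Snora44 and Snora61, showed the largest difference. Its levels in untreated Tespa1+/+ LSKs were 30.5, 36.2 and 25.8 CPM, and after 5-FU 18.2, 24.3 and 19.0 CPM. Those of Tespa1-/- LSKs were 30.6, 32.2 and 30.8 CPM untreated and 22.6, 18.1 and 21.9 CPM after 5-FU. Every library after 5-FU lay below every untreated library of its genotype. The log2 fold change was -0.59 (SE 0.11, adjusted p = 0.0073) in Tespa1-/- LSKs, a mean level of 20.9 ± 2.43 CPM against 31.2 ± 0.847 CPM (SD, n = 3 libraries each). In Tespa1+/+ LSKs it was also -0.59 (SE 0.17), with an adjusted p of 0.074 and a 95% interval from -0.98 to -0.20. That call depended on the fit, with adjusted p between 0.020 and 0.23 over 15 alternatives, 2 of them below 0.05. Within both treatments the genotypes overlapped.

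Gas5 fell by a small amount that exceeded its spread in Tespa1-/- LSKs. It was at 230.0, 235.0 and 230.4 CPM untreated and at 199.4, 203.5 and 200.5 CPM after 5-FU, with no overlap. The log2 fold change was -0.22 (SE 0.042, adjusted p = 0.0075, edgeR), or 231.8 ± 2.79 against 201.1 ± 2.13 CPM (SD, n = 3 libraries each). In Tespa1+/+ LSKs Gas5 was at 209.9, 228.5 and 222.3 CPM untreated and at 211.9, 205.7 and 199.6 CPM after 5-FU. These groups overlapped by 1 library on each side, and the log2 fold change was -0.10 (SE 0.059, adjusted p = 0.39, 95% interval from -0.23 to 0.04). Zbtb37, which overlaps Gas5 by 428 bp on the opposite strand, rose in Tespa1+/+ LSKs after 5-FU (log2 fold change 1.12, SE 0.20, adjusted p = 0.010), and its part in the Gas5 counts was not tested.

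Snhg8, the host of Snora24, was at 34.0, 29.1 and 29.2 CPM in untreated Tespa1+/+ LSKs and at 24.6, 23.5 and 23.3 CPM after 5-FU. In Tespa1-/- LSKs it was at 34.7, 36.4 and 30.8 CPM untreated and at 28.5, 21 and 26.7 CPM after 5-FU. Neither pair of groups overlapped, yet neither passed the adjusted threshold. The log2 fold change was -0.37 (SE 0.12, adjusted p = 0.12) in Tespa1+/+ and -0.43 (SE 0.13, adjusted p = 0.054) in Tespa1-/- LSKs, and 5 of 15 alternatives put the latter below 0.05, with a range from 0.020 to 0.17. Groups that did not overlap, with 5-FU lower, were thus seen for 2 of 6 genes in Tespa1+/+ LSKs, Snhg8 and Snhg12, and for 3 of 6 in Tespa1-/- LSKs, where Gas5 joined them. Among all genes tested the shares were 14.4% and 18.2%. The smallest exact permutation p of 3 libraries against 3 is 0.1, so no gene could pass by that test alone.

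Snhg1, Snhg6 and Snhg3 did not pass after 5-FU in either genotype. Snhg1, whose Snord22 had 595 to 1007 counts per library, was at 58.6, 70.8 and 66.6 CPM in untreated Tespa1+/+ LSKs and at 54.6, 62.4 and 50.5 CPM after 5-FU (log2 fold change -0.23, SE 0.11, adjusted p = 0.29). Tespa1-/- LSKs held Snhg1 at 60.6, 46.6 and 51.0 CPM untreated and at 56.2, 48.1 and 48.7 CPM after 5-FU, a log2 fold change of -0.06 (95% interval from -0.31 to 0.20). Snhg6 lay between 7.59 and 15.6 CPM in all 12 libraries, with every group overlapping every other. Its intervals, from -0.83 to 0.39 in Tespa1+/+ and from -0.57 to 0.35 in Tespa1-/- LSKs on the log2 scale, are wide beside its estimates, and the one in Tespa1+/+ LSKs includes the value of Snhg12.

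Neutrophil, erythroid and B cell markers were higher in sum after 5-FU in Tespa1-/- LSKs, as given above. Megakaryocyte markers summed to 162 to 165 CPM there against 60.1 to 62.7 CPM untreated, and macrophage markers to 65.8 to 86.9 against 102 to 108 CPM. The part of these shifts in the fall of Gas5 and Snhg12 was not tested. In Tespa1+/+ LSKs after 5-FU the estimates were -0.59 for Snhg12 and -0.10 for Gas5, and the 8 neutrophil markers summed to 2.35 to 5.73 CPM. The other marker sums moved there too. After 5-FU against untreated, B cell markers summed to 249 to 254 against 57.5 to 66.9 CPM, erythroid markers to 238 to 263 against 144 to 171 CPM and 4 megakaryocyte markers to 106 to 120 against 32.0 to 37.2 CPM, while multipotent and stem cell markers summed to 813 to 823 against 1138 to 1182 CPM. Their part in these estimates was not tested either. The difference of the 5-FU effects between genotypes was tested for each gene by the interaction term. None of the 6 passed in edgeR or DESeq2, where 5.01% of 18696 genes did in edgeR, and none had an unadjusted p below 0.05. For Snhg12 the difference was 0.01 (95% interval from -0.45 to 0.46) and for Gas5 -0.11 (95% interval from -0.25 to 0.04), on the log2 scale.

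With the 5-FU effect averaged over the genotypes in 1 fit of 12 libraries, a comparison added after seeing the data, Gas5, Snhg8 and Snhg12 were called lower, 3 of 6 genes where 9.52% of all genes were. Their log2 fold changes were -0.15 (SE 0.033, adjusted p = 0.0054), -0.39 (SE 0.090, adjusted p = 0.0067) and -0.58 (SE 0.11, adjusted p = 0.0014). Leaving out each library in turn kept all 3 below 0.05.

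**Figure D2:**
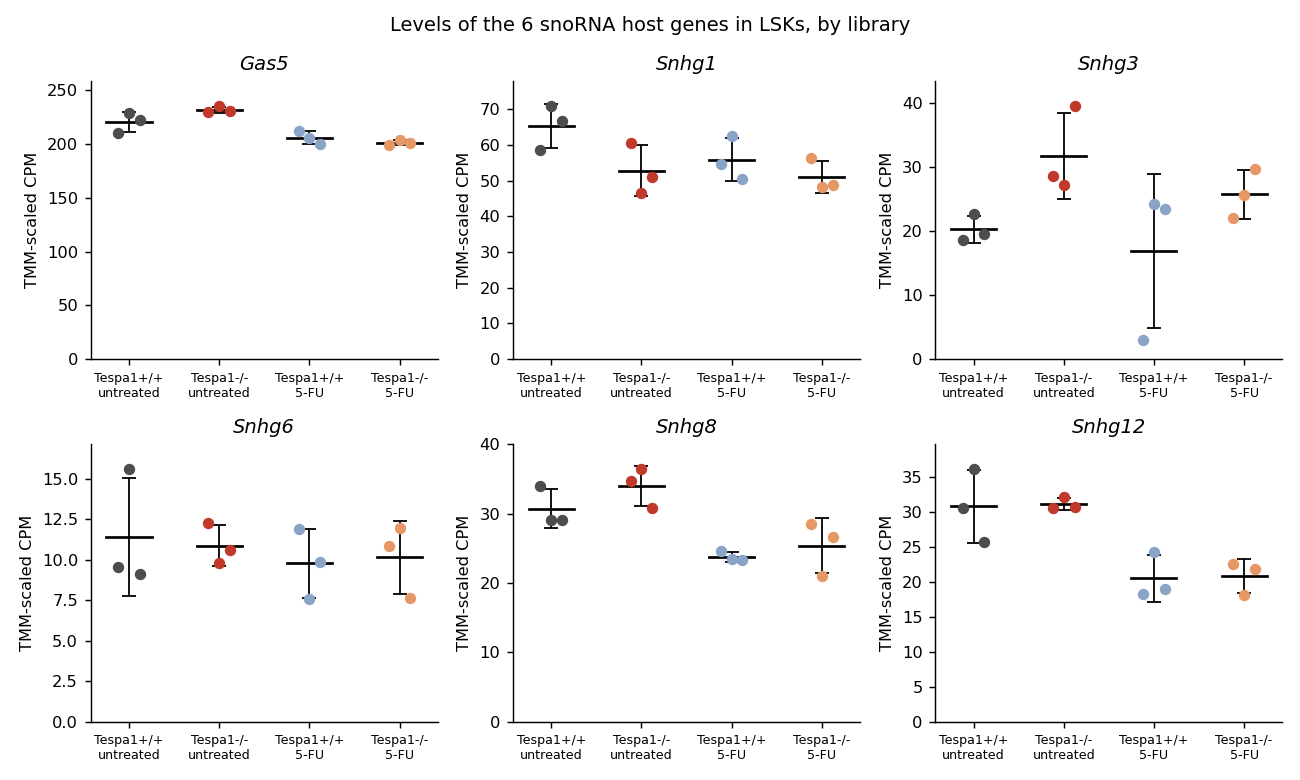
TMM-scaled CPM of each of the 6 genes in every library, by group, with the mean (line) and SD (bar, n = 3). Snhg12 and Snhg8 lie lower after 5-FU in both genotypes, Gas5 moves within 199 to 235 CPM, and 1 Tespa1+/+ library after 5-FU holds Snhg3 at 3.04 CPM.

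**Figure D3:**
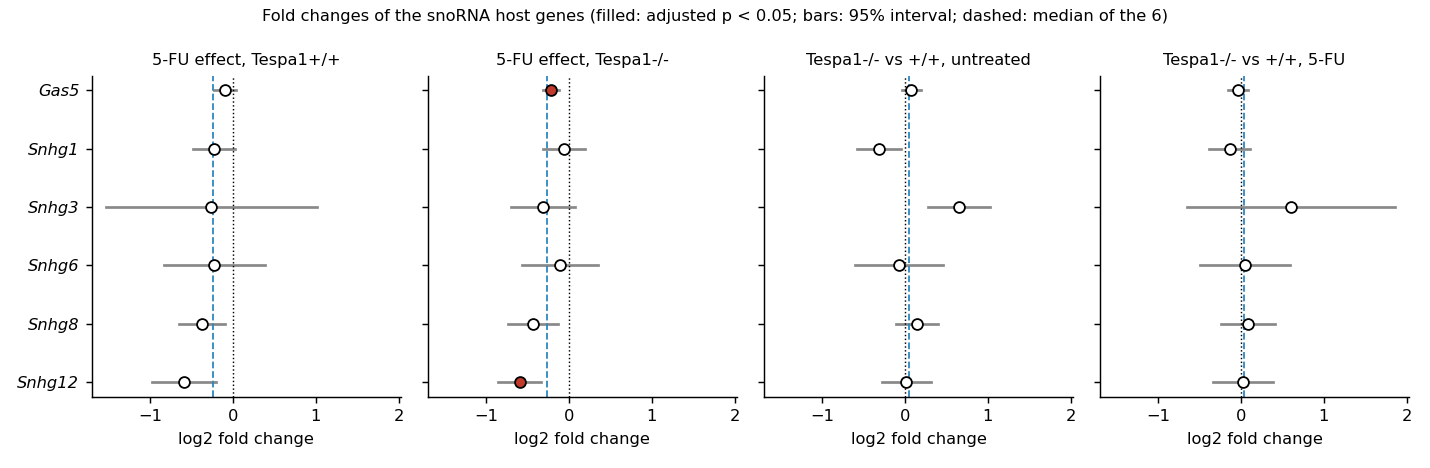
Log2 fold change of each gene in 4 comparisons, with its 95% interval (grey bar). Filled points are called at an adjusted p below 0.05, and dashed lines mark the median of the 6 genes. All 6 points lie left of 0 in both 5-FU panels, and only Gas5 and Snhg12 are filled, both in Tespa1-/- LSKs.

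Whether loss of Tespa1 alters these RNAs was asked within each treatment. After 5-FU none of 6 passed in edgeR or DESeq2, where edgeR called 13.1% of 17239 genes in either direction, and none had an unadjusted p below 0.05. All 6 overlapped between the genotypes, where 33.0% of genes did not. The mean of Gas5 was 205.7 ± 6.15 CPM (SD, n = 3 libraries) in Tespa1+/+ LSKs against 201.1 ± 2.13 CPM in those of Tespa1-/- mice, a log2 difference of -0.04 with a 95% interval from -0.15 to 0.08. For Snhg8 it was 0.09 (from -0.24 to 0.41), for Snhg12 0.02 (from -0.34 to 0.39), for Snhg6 0.05 (from -0.49 to 0.59) and for Snhg1 -0.13 (from -0.38 to 0.11). In untreated LSKs none of 6 passed either, where 5.23% of 17055 genes did, 2 had an unadjusted p below 0.05, Snhg3 and Snhg1, and DESeq2 called 1, Snhg3. The estimate for Snhg1 in untreated Tespa1-/- against Tespa1+/+ LSKs was a log2 difference of -0.31 (SE 0.11, adjusted p = 0.19), with the highest Tespa1-/- library (60.6 CPM) above the lowest Tespa1+/+ library (58.6 CPM). Gas5 did not overlap between untreated genotypes, with the lowest Tespa1-/- library at 230.0 and the highest Tespa1+/+ library at 228.5 CPM, a log2 difference of 0.07 (SE 0.050, adjusted p = 0.49).

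Snhg3, which holds both mouse copies of the H/ACA snoRNA that acts in cleavage of the ribosomal RNA precursor, had the largest genotype estimate in untreated LSKs. Its levels were 18.7, 22.6 and 19.6 CPM in the libraries of Tespa1+/+ mice and 28.6, 27.2 and 39.5 CPM in those of Tespa1-/- mice, without overlap. Such separation in either direction was seen for 2 of 6 genes, Gas5 and Snhg3, and for 25.6% of all genes tested. The log2 difference was 0.65 (SE 0.16, 95% interval from 0.27 to 1.02), with an adjusted p of 0.063. Over 15 alternatives the adjusted p ran from 0.0050 to 0.56, and 3 were below 0.05. Megakaryocyte markers summed to 60.1 to 62.7 CPM in these Tespa1-/- libraries against 32.0 to 37.2 CPM, and macrophage markers to 102 to 108 against 75.4 to 86.5 CPM. Multipotent and stem cell markers summed to 935 to 966 against 1138 to 1182 CPM, and B cell markers to 33.9 to 40.7 against 57.5 to 66.9 CPM. Snora73b, counted separately, differed by 0.65 (SE 0.18, adjusted p = 0.085) and Snora73a by 0.68 (SE 0.23, adjusted p = 0.15). All snoRNA genes of the table together were higher in the same libraries, at 1712 to 2010 CPM (without TMM) against 1303 to 1506 CPM, and so were small structural RNAs, at 41498 to 43356 CPM against 26132 to 28945 CPM, with 5 of 7 called. The part of these shifts and of the markers in the Snhg3 difference was not tested. Rcc1, a protein-coding gene that shares 5592 bp with Snhg3 on the same strand and encodes the exchange factor of Ran, differed by 0.28 (SE 0.069, adjusted p = 0.055), and reads in exons that both genes share cannot be told apart.

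After 5-FU, the Tespa1+/+ libraries held Snhg3 at 3.04, 24.2 and 23.5 CPM and those of Tespa1-/- mice at 22.0, 25.7 and 29.6 CPM. Replicate 1 of the Tespa1+/+ mice had 78 counts where replicates 2 and 3 had 628 and 570. In that library Snora73a had 506 counts, against 142 and 143 in replicates 2 and 3 and 123 to 246 in the other 11 libraries. An exon of 1 of the 5 annotated Snhg3 transcripts overlaps Snora73a over 159 of its 205 bases. Part of the Snora73a reads can thus be assigned to either gene. The ratio of Snhg3 to Snora73a counts was 0.154 there and between 3.20 and 4.42 in the other 11. The sum of both genes was 22.8 CPM in that library, the lowest of the 12 libraries, and 29.7 and 29.4 CPM in its partners. Snora73b was at 23.0 CPM there and at 20.2 and 20.4 CPM in its partners. On the log2(CPM + 1) scale Snhg3 differed from the mean of its partners by -2.62, the third lowest of 9435 genes with a mean of at least 10 CPM, and 4 genes lay 2.5 or more below. The other libraries each held 2 to 6 such genes, so the library did not stand apart by their number.

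Sequence shows how close the 2 snoRNAs are. Both are on the minus strand of chromosome 4, Snora73a at chr4:132352775-132352979 and Snora73b at chr4:132352322-132352526, and both are 205 bases long. They differ at 7 positions (96.6% identity), which are in capitals in the GENCODE sequences of the GRCm38 annotation.
Snora73a: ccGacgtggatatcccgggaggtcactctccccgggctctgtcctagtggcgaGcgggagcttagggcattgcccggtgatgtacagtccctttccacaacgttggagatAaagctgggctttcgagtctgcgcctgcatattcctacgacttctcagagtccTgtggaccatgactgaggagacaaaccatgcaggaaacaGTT
Snora73b: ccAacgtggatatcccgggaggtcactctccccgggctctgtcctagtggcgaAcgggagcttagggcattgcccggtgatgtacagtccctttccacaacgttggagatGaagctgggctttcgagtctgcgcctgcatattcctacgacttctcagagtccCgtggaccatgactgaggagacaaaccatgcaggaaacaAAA
With so few differences, how reads are shared between the 2 copies is uncertain. The comparisons of Snhg3 that use Tespa1+/+ LSKs after 5-FU rest on this 1 library. The 5-FU effect in Tespa1+/+ LSKs was -0.26 (SE 0.56, adjusted p = 0.85) with it and 0.24 (adjusted p = 0.49) without it. The difference between genotypes after 5-FU was 0.60 (SE 0.56, adjusted p = 0.55) with it and 0.11 (adjusted p = 0.76) without it, and the interaction -0.04 with it and -0.55 without it. When the host and the snoRNAs in its span were summed, an alternative added after seeing the data, the 5-FU effect in Tespa1+/+ LSKs was 0.07 (adjusted p = 0.77) and the genotype difference after 5-FU 0.27 (adjusted p = 0.17). For the summed counts in untreated LSKs the genotype difference was 0.65 (SE 0.14, adjusted p = 0.035). For Tespa1-/- LSKs the 5-FU estimate of Snhg3 was -0.31 (SE 0.17, adjusted p = 0.24).

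**Figure D4:**
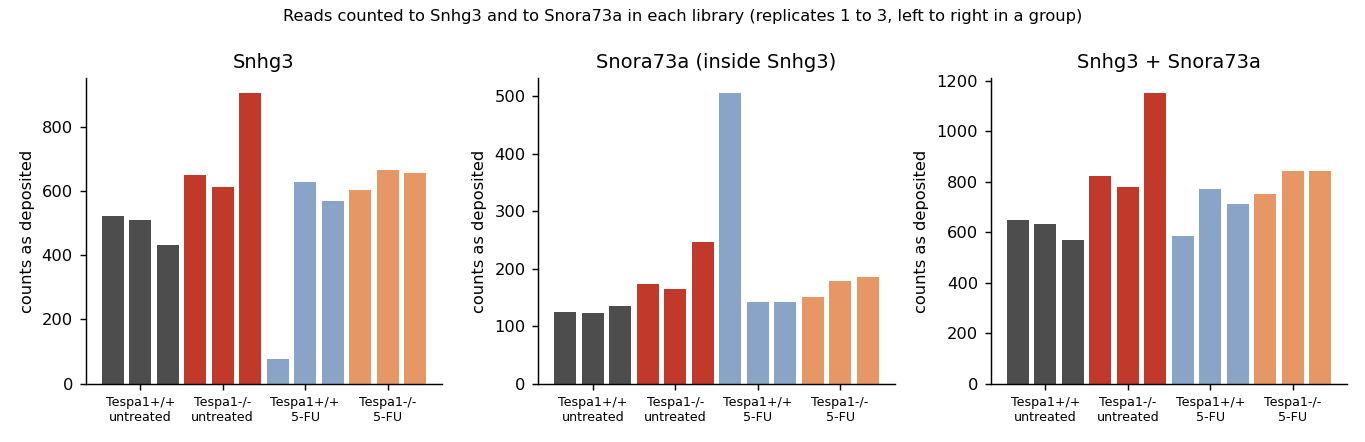
Counts as deposited for Snhg3 (left), Snora73a (middle) and their sum (right) in each of the 12 libraries, with replicates 1 to 3 from left to right in each group. In the first Tespa1+/+ library after 5-FU Snhg3 drops to 78 counts and Snora73a reaches 506. Scaled to CPM, their sum there was 22.8, against 29.7 and 29.4 in its partners.

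The snoRNA genes inside the hosts numbered 27. Mature snoRNAs carry no poly-A tail, so poly-A libraries are not made to measure them. Of the 27, 12 had more than 3 counts in all libraries and 10 had exactly 1 count in every library, while 5 moved between these states. What the value of 1 stands for is not given in the sources used here, and it may be a fill value rather than a measurement, also in the genes tested that switch to it, such as Snord47 and 1 of 2 entries of Snora16a. Among the 5 was Gm25894 in Snhg1, at 1 count in 7 libraries and at up to 102 in the other 5. Exactly 1 count in all 12 libraries was found for 2.72% of 1507 snoRNA genes in the table and for 0.239% of 51958 other genes. Of 14 tested in edgeR in Tespa1-/- LSKs, all 14 were lower after 5-FU by estimate, with a median log2 fold change of -0.46. The total of all snoRNA genes in the table was also lower there, at 1241 to 1394 CPM (without TMM) against 1712 to 2010 CPM in untreated libraries. Passing the test were 2, Snord87 in Snhg6 (-1.25, SE 0.24, adjusted p = 0.0072) and Snora44 in Snhg12 (-0.76, SE 0.19, adjusted p = 0.023). In Tespa1+/+ LSKs 13 of 15 were lower by estimate, with a median of -0.31, and none passed in edgeR or DESeq2 or had an unadjusted p below 0.05. The total of all snoRNA genes in these libraries was 1491 to 1652 CPM after 5-FU against 1303 to 1506 CPM untreated, ranges that overlapped, with the higher median after 5-FU. Between genotypes none passed in edgeR in either treatment, 2 had an unadjusted p below 0.05 untreated and 0 after 5-FU, and DESeq2 called 1 higher in untreated Tespa1-/- LSKs and 0 after 5-FU. Snord87 fell where its host Snhg6 had an estimate of -0.11, and Snora44 fell beside its host Snhg12.

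Other genes of the pathway came from lists described with the processing, whose members are read against the shares called among all genes above. Of 12 other noncoding hosts tested in Tespa1-/- LSKs, 1 fell after 5-FU, Snhg4 (-0.93, SE 0.15, adjusted p = 0.0028), and none rose, with a median of -0.27. Snhg4 averaged 66.9 CPM in untreated Tespa1-/- LSKs and 35.4 CPM after 5-FU, against 40.6 and 42.9 CPM in Tespa1+/+ LSKs. In Tespa1+/+ LSKs none of 11 passed in edgeR or DESeq2, 1 had an unadjusted p below 0.05, and the median was 0.06. The protein-coding hosts, of which 16 of 29 encode ribosomal proteins, were lower in most cases. With 5-FU in Tespa1+/+ mice 17 of 29 fell and none rose, with a median of -0.23, led by Rpl10 (-0.56, SE 0.11, adjusted p = 0.017) and Rps12 (-0.56, SE 0.13, adjusted p = 0.036). In Tespa1-/- LSKs 19 of 29 fell and none rose, with a median of -0.22, led by Taf1d (-0.64, SE 0.045, adjusted p = 2.7e-05), a subunit of the RNA polymerase I factor SL1, and Rps12 (-0.49, SE 0.15, adjusted p = 0.049). Averaged over genotypes, 23 of 29 fell and none rose. Of 84 cytosolic ribosomal proteins tested, 12 fell in Tespa1+/+ LSKs (median -0.14) and 24 in Tespa1-/- LSKs (median -0.15), and none rose. DESeq2 called 19 and 25 lower in these 2 comparisons and 0 higher. Ribosomal protein genes have many processed copies in the genome, which makes their counts uncertain.

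Between genotypes the protein-coding hosts split. After 5-FU 4 of 29 were higher in Tespa1-/- LSKs, among them Rps2 (0.46, SE 0.047, adjusted p = 0.00028), and 5 were lower, among them Taf1d (-0.41, SE 0.050, adjusted p = 0.00076) and Tpt1 (-0.36, SE 0.046, adjusted p = 0.00093), with a median of -0.01. Over all genes tested, 7.34% were higher and 5.78% lower. In untreated LSKs 5 were lower, among them Eif5 (-0.33, SE 0.058, adjusted p = 0.016), and none higher, where 3.59% of all genes tested were lower and 1.64% higher. None of the other noncoding hosts passed in edgeR in either treatment, 1 had an unadjusted p below 0.05 in each, and DESeq2 called 1 higher in untreated Tespa1-/- LSKs and 0 after 5-FU. In the interaction test 3 of 29 protein-coding hosts were called, with a higher 5-FU effect in Tespa1-/- LSKs, led by Ncl (0.26, SE 0.030, adjusted p = 0.00028), which encodes nucleolin, and DESeq2 called 2 higher and 2 lower.

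Of 18 tested genes for proteins that form or assemble snoRNPs, 5 fell after 5-FU in the average over genotypes, 7 by DESeq2, and none rose. In the pairwise comparisons 2 fell after 5-FU in Tespa1+/+ LSKs, Nop56 (-0.32, SE 0.072, adjusted p = 0.027) and Nop58 (-0.32, SE 0.071, adjusted p = 0.025), the paired scaffolds of box C/D particles, with a list median of -0.13. With 5-FU in Tespa1-/- mice 1 fell, the assembly factor Nufip1 (-0.32, SE 0.086, adjusted p = 0.032), with a median of -0.09. Fbl, the methyltransferase of box C/D particles, was the only one of the 18 that edgeR called between genotypes, higher in Tespa1-/- LSKs after 5-FU (0.31, SE 0.066, adjusted p = 0.015). Among nonsense-mediated decay factors, the kinase Smg1 (-0.31, SE 0.045, adjusted p = 0.0018) fell after 5-FU in Tespa1-/- LSKs, while Upf3b (0.32, SE 0.084, adjusted p = 0.027) and Rbm8a (0.25, SE 0.064, adjusted p = 0.028) rose. Between genotypes after 5-FU 1 of 16 such factors was higher in Tespa1-/- LSKs, Eif4a3 (0.24, SE 0.061, adjusted p = 0.031), a core protein of the exon junction complex. Of 14 subunits and cofactors of the nuclear RNA exosome, none passed in edgeR in the 4 pairwise comparisons, 1 had an unadjusted p below 0.05 after 5-FU in Tespa1+/+ and 2 in Tespa1-/- LSKs, and DESeq2 called 1 lower after 5-FU in Tespa1+/+ LSKs. In the average over genotypes edgeR called 1 of the 14 lower after 5-FU, Dis3 (-0.26, SE 0.059, adjusted p = 0.0066). DESeq2 called 1 higher and 1 lower there.

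**Figure D5:**
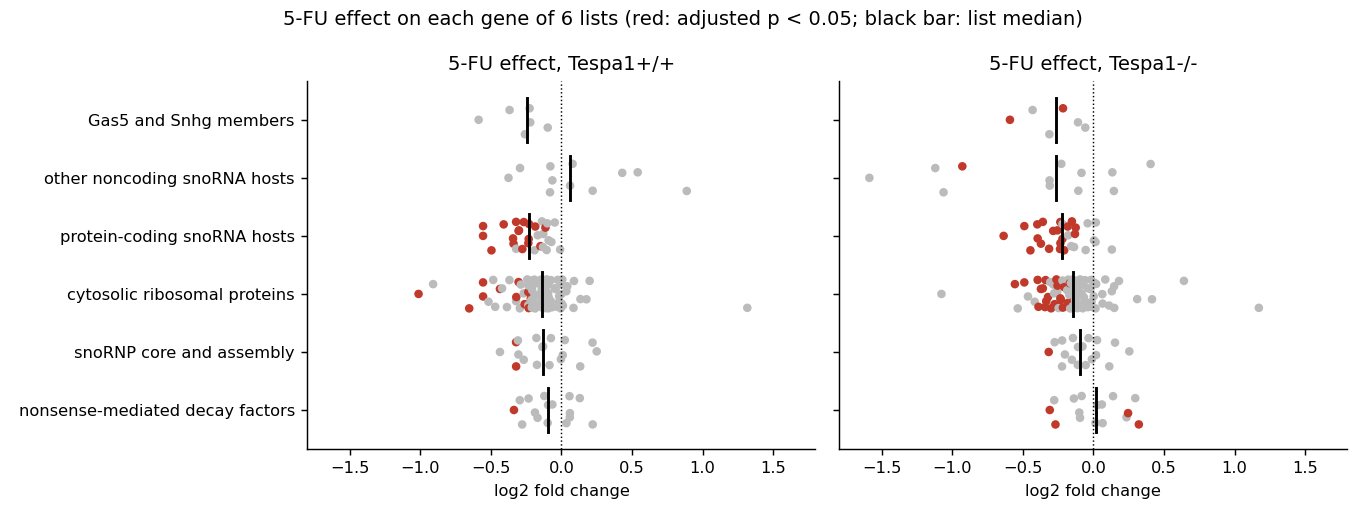
Log2 fold change after 5-FU of each tested gene in 6 lists, in Tespa1+/+ (left) and Tespa1-/- LSKs (right), with red points at an adjusted p below 0.05 and a black bar at the list's median (heights within a list only separate points). Of the 29 protein-coding hosts, 29 lie left of 0 in Tespa1+/+ and 25 in Tespa1-/- LSKs (medians -0.23 and -0.22), all 6 members lie left of 0 in both panels (-0.24 and -0.26), and other noncoding hosts scatter on both sides in Tespa1+/+ LSKs (median 0.06). Some of the other noncoding hosts were near 1 CPM.

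Over the 12 libraries the members did not share 1 profile. Snhg8 and Snhg12 had a Pearson r of 0.82, Gas5 and Snhg12 0.78, and Gas5 and Snhg8 0.70, on the log2(CPM + 1) scale. For the other 12 pairs r lay between -0.20 and 0.42. These values are descriptions over libraries that share treatment and genotype. Of 9429 other genes with a mean of at least 10 CPM, those whose profile was most like the members' mean standardised level by Pearson r were P4ha1 (0.93), the pseudogene Gm28437 (0.93), the chaperone Dnaja1 (0.92), Wdr43 (0.92), a factor of small ribosomal subunit assembly, and the lymphoid transcription factor Ikzf1 (0.91). By Spearman's rho none of these were among the first 5, which were Pa2g4, Dis3, Mllt1, Prkci and the pseudogene Gm8355, so the order is not settled by 12 libraries.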

How the data were processed

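RNA from sorted LSKs was made into stranded poly-A paired-end libraries and sequenced on a NovaSeq. The submitters' processing notes name CASAVA 1.8, HISAT2, StringTie, edgeR and GRCm38, without roles, and whether counting used strand is not given in the sources used here. The table deposited by the authors holds counts per gene and FPKM, and no column was left unmapped. Counts were used as deposited in edgeR 4.0.16 (R 4.3.3): filterByExpr with a minimum count of 10, TMM, the quasi-likelihood test and Benjamini-Hochberg adjustment over all genes, called at an adjusted p below 0.05. The study's own thresholds were a fold change above 1.5 and P below 0.05. Each pairwise comparison used its 6 libraries, and the interaction all 12. SEs were derived from the quasi-F statistic. The scripts were tested on simulated data. Alternatives were DESeq2 1.42.0, other scalings and filters, a replicate block, a gene length offset, all 12 libraries in 1 fit, and leaving out each library.

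Members and lists (other noncoding hosts, protein-coding hosts, snoRNP core and assembly, ribosomal proteins, nonsense-mediated decay factors and targets, nuclear exosome, glucocorticoid receptor genes, small structural RNAs, neighbours) were chosen with earlier results of these data known. Named are the members and, from each list, up to 2 genes higher and 2 lower with the largest fold change among those called at a mean of at least 1 CPM, and the 5 genes most like the members. A list gene that the rule would name is not reported here. Of the 15 other noncoding hosts listed, 13 symbols were in the table. Replicate numbers did not pair the libraries (r of deviations from group means between -0.14 and 0.059 for 18 same-numbered pairs). Replicates differed beyond sampling noise. Intervals cover the spread between libraries, and detection limits counting error only.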

Additional observations from a re-analysis of the deposited data

How the results depend on the processing

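Of 600 values of single members under alternatives, 544 kept direction and side of the threshold, 11 passed it where the reported value did not, and 45 changed sign. The sign changes touched 15 values, none past the threshold (smallest adjusted p after the change 0.49). Gas5 and Snhg12 stayed called in Tespa1-/- LSKs after 5-FU under each of 15 alternatives. Counts of called members changed as follows, and the cause was not tested. After 5-FU in Tespa1+/+ LSKs 1 was lower (0 as reported) with DESeq2, with all 12 libraries in 1 fit and with the study's thresholds. In untreated LSKs 1 was higher in Tespa1-/- mice (0 as reported) with DESeq2, with at least 10 counts in every library, with the snoRNAs added to their hosts and with the study's thresholds. With the study's thresholds, and with an adjusted p plus a fold change above 1.5, 1 rather than 2 was lower in Tespa1-/- LSKs after 5-FU, and 0 rather than 3 in the average over genotypes, which a bound on the fold change itself brings about. In the other direction, 3 rather than 2 were lower in Tespa1-/- LSKs, with Snhg8 added, by DESeq2, with at least 10 counts in every library, with snoRNAs added, with all 12 libraries in 1 fit and without replicate 1 of the treated Tespa1-/- libraries. In the average over genotypes 4 rather than 3 were lower with snoRNAs added, where Snhg1 passed (adjusted p = 0.019, edgeR).

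Sign changes (log2) other than by leaving out a library were these. Genotype effect after 5-FU: Snhg12 -0.0074 with library totals and -0.043 with snoRNAs added, Snhg6 -0.026 with snoRNAs added, Gas5 0.0098 with a length offset. Genotype effect in untreated LSKs: Snhg12 -0.0030 without a filter, Snhg6 0.086 with snoRNAs added. In the 5-FU effect in Tespa1+/+ LSKs, Snhg3 was 0.067 with snoRNAs added. Interaction: Snhg12 -0.037 with library totals, -0.015 with at least 10 counts in every library and -0.16 with snoRNAs added, where Snhg1 was -0.012 and Snhg6 -0.11. Replicate numbers did not pair the libraries. With them as a block, the Snhg3 interaction was 0.14, and the block changed no call of a member.

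Leaving out each library in turn gave sign changes in these ranges. Genotype effect after 5-FU: Snhg6 -0.10 to 0.22, Snhg8 -0.00033 to 0.21, Snhg12 -0.053 to 0.16. Untreated: Snhg6 -0.21 to 0.22, Snhg12 -0.096 to 0.15. In the 5-FU effect in Tespa1+/+ LSKs, Snhg3 lay between -0.61 and 0.24 and Snhg6 between -0.39 and 0.069, and in Tespa1-/- LSKs Snhg1 between -0.14 and 0.055 and Snhg6 between -0.24 and 0.057. Interaction: Snhg3 -0.55 to 0.30, Snhg6 -0.17 to 0.28, Snhg8 -0.16 to 0.054, Snhg12 -0.12 to 0.13. Counting error (1.39% to 6.25%) was below the highest spread within groups for each member.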

Other observations

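The nearest protein-coding gene on each side of every host that was tested in at least 1 comparison, with those overlapping it, gave 14 genes. After 5-FU, 1 rose and 1 fell of 14 tested in Tespa1+/+ LSKs, Zbtb37 (log2 fold change 1.12, SE 0.20, adjusted p = 0.010), which overlaps Gas5, and Slc3a2 (-0.51, SE 0.078, adjusted p = 0.0041), which starts 106 bp from Snhg1. Over all genes tested there, 3.77% rose and 4.18% fell. Of 13 tested in Tespa1-/- LSKs, 1 rose, Wdr74 (1.31, SE 0.38, adjusted p = 0.040), and 1 fell, Sgk3 (-0.74, SE 0.098, adjusted p = 0.0011), where 10.7% of all genes tested rose and 8.64% fell, and DESeq2 called 0 of the 13 higher and 1 lower. Snhg1, which lies between Slc3a2 and Wdr74, had estimates of -0.23 and -0.06. Between genotypes after 5-FU, 2 of 13 were higher in Tespa1-/- LSKs, Wdr74 (0.71, SE 0.19, adjusted p = 0.038) and Rcc1 (0.35, SE 0.082, adjusted p = 0.021), and 1 was lower, Camk2d (-0.45, SE 0.12, adjusted p = 0.037), which lies 3087898 bp from Snhg8, where 7.34% of all genes tested were higher and 5.78% lower. Rcc1 overlaps Snhg3, whose estimate there was 0.60 with 1 low library and 0.11 without it. In untreated LSKs 1 of 13 was lower in Tespa1-/- mice, Slc3a2 (-0.29, SE 0.064, adjusted p = 0.038), where the Snhg1 estimate was -0.31. Slc3a2 was also the 1 of 14 that passed the interaction test (0.41, SE 0.10, adjusted p = 0.038).

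Of 10 genes of the glucocorticoid receptor list, which was included because Gas5 RNA can bind the receptor, 2 fell after 5-FU in Tespa1+/+ LSKs, Per1 (-0.68, SE 0.078, adjusted p = 0.00094) and Dusp1 (-0.42, SE 0.050, adjusted p = 0.0012). In Tespa1-/- LSKs 4 fell, among them Errfi1 (-1.79, SE 0.37, adjusted p = 0.010) and Fkbp5 (-0.61, SE 0.093, adjusted p = 0.0023), and 1 rose, Sgk1 (0.96, SE 0.18, adjusted p = 0.0063). Between genotypes in untreated LSKs 3 were lower in Tespa1-/- mice, among them Sgk1 (-1.09, SE 0.18, adjusted p = 0.013) and Per1 (-0.74, SE 0.061, adjusted p = 0.00039), and 1 was higher, Fkbp5 (0.55, SE 0.13, adjusted p = 0.045). After 5-FU 1 was lower, Dusp1 (-0.24, SE 0.047, adjusted p = 0.011), and 1 passed the interaction test as lower, Klf9 (-0.58, SE 0.15, adjusted p = 0.049). Of 6 other transcripts sensitive to nonsense-mediated decay, 3 fell in Tespa1+/+ LSKs, among them Gadd45b (-1.49, SE 0.096, adjusted p = 3.4e-05). For Tespa1-/- LSKs 2 fell, Carm1 (-0.61, SE 0.15, adjusted p = 0.018) and Gadd45b (-0.42, SE 0.10, adjusted p = 0.020), and 1 rose, Gadd45a (1.06, SE 0.17, adjusted p = 0.0025). Small structural RNAs moved in opposite directions: of 7 tested, 5 rose and 1 fell after 5-FU in Tespa1+/+ LSKs, and 1 rose and 5 fell in Tespa1-/- LSKs. All 7 passed the interaction test as lower.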
